A study of Homo sapiens with 16 samples.

Results

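The comparison described here is the addition of palbociclib to indisulam in A549 cells, read from 4 of the 16 RNA sequencing libraries of the series. It sets the 2 libraries of A549 cells given both drugs (P+I) against the 2 libraries of A549 cells given indisulam alone (IN), as assigned by the source name and treatment in the sample labels. A549 is an established line of human lung cancer cells. The IN cells received 3 µM indisulam and the P+I cells received 3 µM indisulam with 2 µM palbociclib, in both cases for 16 h, so indisulam was shared by both groups and palbociclib was the only labelled difference. The same palbociclib step without indisulam, from untreated (UT) to 2 µM palbociclib alone (PD), was available in 4 further A549 libraries, and SUM159, a line of triple-negative breast cancer cells, had been treated in the same way. The study describes its duplicates as technical, so the p-values below measure only the spread between these libraries, from 1 established line each, and not that between independent cultures.

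CDK4 and CDK6 are kinases that act with D-type cyclins to phosphorylate the retinoblastoma protein, RB, and its relatives. Phosphorylated RB releases the E2F transcription factors, which switch on genes for entry into S phase, and a later wave of genes for mitosis is driven by B-MYB and FOXM1 on the MuvB complex. Palbociclib blocks CDK4 and CDK6. Indisulam is an aryl sulfonamide that joins the splicing factor RBM39 to the DCAF15 ubiquitin ligase, after which RBM39 is degraded. Comparing P+I with IN therefore asked what CDK4/6 inhibition did to the transcriptome of cells in which indisulam was already present.

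Total gene counts were 23851384 and 22951409 in the IN libraries and 20955845 and 20862384 in the P+I libraries. Levels are given as CPM, the counts of a gene scaled by the size of its library, and a gene is called changed when its adjusted p-value from edgeR's quasi-likelihood test was under 0.05. Markers of A549 cells differed widely in level. Over the 8 A549 libraries KRT8 was between 4809 and 7047 CPM and ALDH3A1 between 3427 and 7163 CPM. EPCAM was between 20.3 and 26.1 CPM, and NKX2-1, NAPSA and SFTPC reached at most 0.428, 1.13 and 0.184 CPM. SFTPA1 and SFTPB, surfactant genes of alveolar cells, had no counts. The summed level of the 13 epithelial markers ranged from 21681 to 22209 CPM in IN and from 26134 to 26252 CPM in P+I. The mean of EPCAM, in contrast, was 22.1 CPM in IN and 20.7 CPM in P+I. The summed level of the 10 markers of other cell types was between 5.16 and 5.69 CPM in IN and between 5.77 and 6.12 CPM in P+I, with CD3E at 0 in every A549 library and COL1A1, at 2.39 to 4.26 CPM, the highest of them. The part of these shifts in the results was not tested. In bulk RNA of this kind, fewer cells of a type or phase and less of an RNA per cell cannot be told apart.

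Adding palbociclib to indisulam lowered nearly all tested genes of DNA replication and mitosis. Over the whole table similar numbers of genes were called lower and higher, and more of the lower ones changed by at least 1 on the log2 scale. Of 15744 genes tested, 6106 were called (38.8%), of which 3171 were lower (20.1%) and 2935 were higher (18.6%). The split depended on the scaling, because with total counts in place of trimmed means 61.16% of the calls were higher against 48.07% here. The P+I and IN libraries did not overlap for 69% of the genes tested, so separation of the duplicates was the rule across the table. On the log2 scale 493 genes fell by at least 1 (3.13%), with a median level in IN of 24.3 CPM, and 337 of them had a mean of at least 5 CPM. The 289 genes that rose by at least 1 on that scale (1.84%) had a median level in IN of 0.540 CPM, and 45 of them reached a mean of 5 CPM.

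The deepest decreases among genes averaging 5 CPM or more were in PIF1 and FAM111B. PIF1, a DNA helicase, was at 30.6 and 37.8 CPM in the IN libraries and at 2.48 and 3.00 CPM in the P+I libraries. Its mean was 12.5-fold lower with both drugs (log2 change -3.64, SE 0.140, adjusted p = 2.85e-11). FAM111B, which encodes a protease, was at 49.2 and 47.5 CPM in IN and at 3.73 and 4.08 CPM in P+I, a 12.4-fold difference in means (log2 change -3.63, SE 0.0896, adjusted p = 2.81e-13). The other genes among the 12 deepest decreases were SPC25, IQGAP3, RRM2, CDCA3, E2F8, KIF14, CCNA2, MCM10, ESPL1 and CCNE2, with log2 changes from -3.21 to -2.91. Most of them act in DNA replication, chromosome attachment or cell division, and for each the P+I duplicates lay below both IN duplicates.

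The upstream bases of 4 of these genes, and of BFSP1, the largest increase among genes of that level, are shown because each holds CCAAT, letters that were more common at the start of the genes that fell most than of all genes. They are the 150 bases before the RefSeq transcription start on GRCh38.p14, written 5′ to 3′ on the gene's strand, with CCAAT (the letters bound by NF-Y) and TTTGAA (a cell cycle homology region, or CHR, the letters bound by MuvB) in capitals in either orientation, so that CCAAT on the other strand reads ATTGG.
CCNA2, minus strand, chr4:121823884-121824033: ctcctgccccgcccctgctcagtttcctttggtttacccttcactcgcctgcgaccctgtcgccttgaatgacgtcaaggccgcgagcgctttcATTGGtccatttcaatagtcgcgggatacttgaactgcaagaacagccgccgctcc
MCM10, plus strand, chr10:13161408-13161557: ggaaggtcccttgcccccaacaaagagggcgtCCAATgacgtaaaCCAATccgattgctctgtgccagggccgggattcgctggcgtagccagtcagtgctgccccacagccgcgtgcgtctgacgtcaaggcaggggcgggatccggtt
ESPL1, plus strand, chr12:53268149-53268298: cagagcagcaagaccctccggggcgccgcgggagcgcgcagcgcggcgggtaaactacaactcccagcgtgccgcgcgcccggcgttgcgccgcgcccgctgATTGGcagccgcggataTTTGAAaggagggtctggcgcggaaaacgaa
KIF14, minus strand, chr1:200620752-200620901: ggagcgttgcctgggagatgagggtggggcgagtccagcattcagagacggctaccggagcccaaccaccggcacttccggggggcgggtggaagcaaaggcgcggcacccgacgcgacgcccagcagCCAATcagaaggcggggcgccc
BFSP1, minus strand, chr20:17569221-17569370: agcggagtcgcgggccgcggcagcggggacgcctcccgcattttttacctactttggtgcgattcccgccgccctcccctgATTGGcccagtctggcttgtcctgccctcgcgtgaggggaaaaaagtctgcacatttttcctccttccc

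CCAAT thus stood at 1 place in this window of CCNA2, ESPL1, KIF14 and BFSP1 and at 2 places in that of MCM10, and TTTGAA stood at 1 place in ESPL1. RefSeq promoters of 300 bases, 250 before and 50 after the start, were matched to 11420 of the 15744 genes tested. The E2F strings searched were TTTGGCGC, TTTCGCGC, TTTCCCGC, TTTGCCGC, TTTGGCGG, TTTCCCGG, TTTGCCGG and TTTCGCGG, the CHR strings were TTTGAA and TTCGAA, and CCAAT was searched alone, each on both strands. Matches of different groups may overlap. An E2F string was present in 9.63% of all matched promoters, in 14.8% of those of genes called lower and in 31.9% of the 94 promoters of genes lower by at least 2 on the log2 scale. A CHR string was present in 11.3%, 14.6% and 48.9% of the same groups, and CCAAT in 36.5%, 41.7% and 68.1%. Among genes called higher, 6.75% of promoters held an E2F string, 12.1% a CHR string and 34.8% CCAAT. These are descriptions of letters in a window, without a test.

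The genes of the palbociclib targets and of their partners changed by less than 0.4 on the log2 scale, except RBL1. CDK4, one of the 2 kinases that palbociclib blocks, was at 138 and 145 CPM in IN and at 111 and 112 CPM in P+I (log2 change -0.34, SE 0.0511, adjusted p = 0.000114). CDK6 had values of 68.1 and 68.4 CPM in IN and 82.5 and 75.1 CPM in P+I, and its call (log2 change 0.21, adjusted p = 0.00796) was lost without either IN library. CCND1, the gene of cyclin D1, was at 383 and 378 CPM in IN and at 509 and 477 CPM in P+I, higher by 0.37 (SE 0.0407, adjusted p = 4.88e-06). CCND3 was higher by 0.16, a call also lost without either IN library, and CCND2, at most 0.0478 CPM in any A549 library, was too low to be tested. All 7 tested genes of the list of CDK4, CDK6, D-type cyclins and RB family were called, 4 higher and 3 lower. With DESeq2 4 were higher and 2 lower. Among all genes 18.6% were higher and 20.1% lower.

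RBL1, which encodes p107, fell from 15.7 and 16.9 CPM in IN to 5.20 and 5.53 CPM in P+I (log2 change -1.60, SE 0.109, adjusted p = 2.91e-08). RBL2, which encodes p130, rose from 85.1 and 78.6 CPM to 106 and 106 CPM (log2 change 0.37, SE 0.0482, adjusted p = 2.59e-05). RB1 had 57.7 and 58.9 CPM in IN and 49.1 and 52.1 CPM in P+I. Its difference was small (log2 change -0.20, adjusted p = 0.00690) and was not called by DESeq2, without P+I replicate 1 or without IN replicate 2. Of the 8 CDK inhibitor genes tested, 4 were lower and 1 was higher, beside 20.1% lower and 18.6% higher among all genes. With DESeq2 or with total-count scaling 3 were lower, and CDKN2D was near the threshold here (adjusted p = 0.0487). The deepest fall was that of CDKN3 (log2 change -1.39), which encodes a phosphatase. CDKN1A, which encodes p21, was the one that rose, from 40.8 and 40.9 CPM to 52.3 and 49.5 CPM (log2 change 0.32, SE 0.0708, adjusted p = 0.00269). CDKN2C, the gene of p18, fell by 1.29 and CDKN1B, the gene of p27, by 0.42 on the log2 scale.

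Of the E2F genes, E2F1, E2F2, E2F7 and E2F8 fell steeply, and the remaining members of the family changed by much less. E2F1 was at 34.8 and 38.4 CPM in IN and at 8.05 and 7.45 CPM in P+I (log2 change -2.24, SE 0.0894, adjusted p = 4.34e-11). E2F2 was lower by 2.60, from 29.2 and 29.1 CPM to 4.28 and 5.34 CPM. E2F7 and E2F8, which encode repressors that are themselves E2F targets, had log2 changes of -2.45 and -2.99. E2F3, an activator like E2F1 and E2F2, had a log2 change of -0.19 (adjusted p = 0.0188). Of the 10 E2F and DP genes, 8 were lower and 2 higher, E2F5 and TFDP2. Among 8 genes of MuvB with its MYB and FOXM1 partners, 7 were lower. MYBL2, the gene of B-MYB, fell from 77.5 and 81.2 CPM to 14.4 and 13.1 CPM (log2 change -2.53, SE 0.0657), and FOXM1 fell from 243 and 237 CPM to 48.4 and 50.5 CPM (log2 change -2.28, SE 0.0451). The MuvB core genes LIN52 and LIN9 had log2 changes of -1.02 and -0.85.

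**Figure D1:**
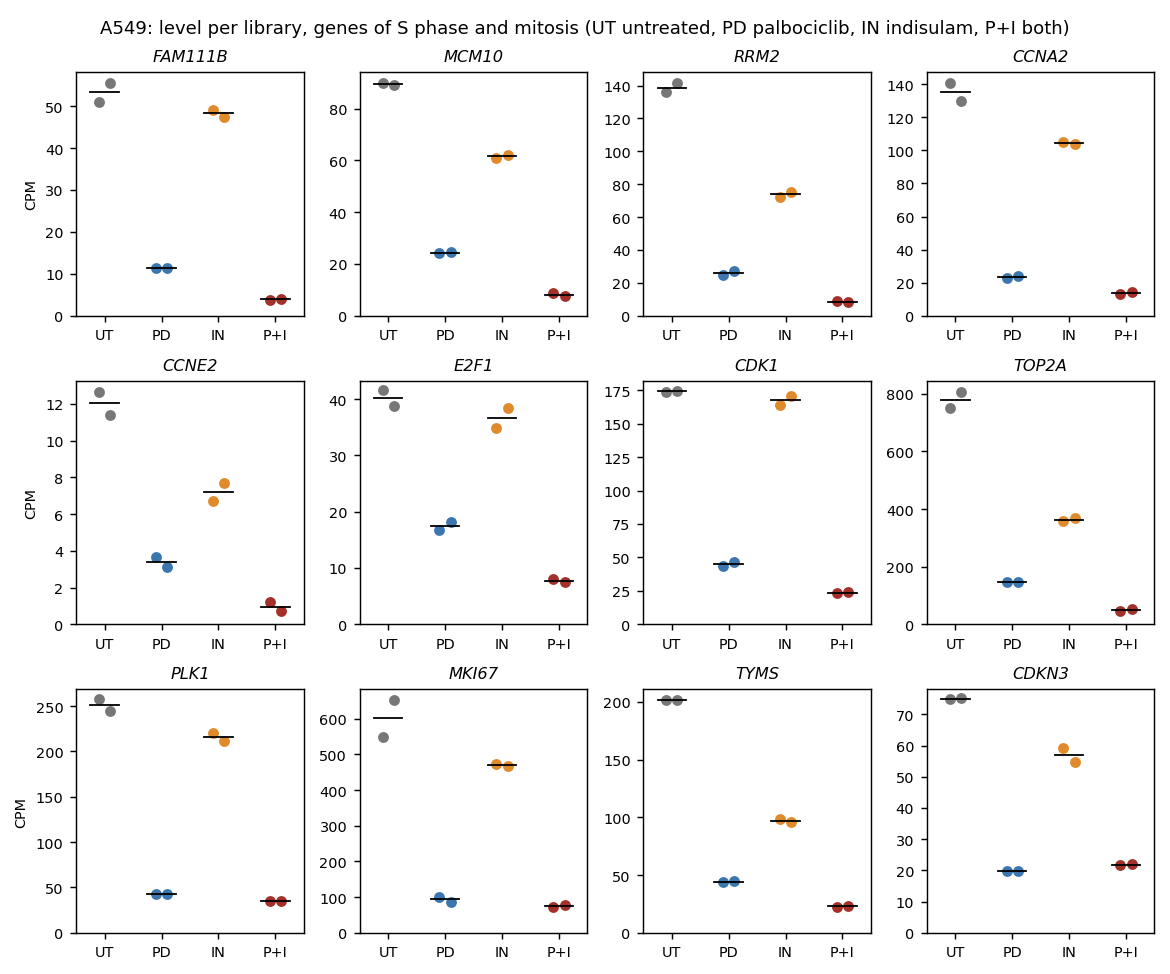
Level in CPM (vertical axis, from 0) of 12 genes of S phase and mitosis in the 8 A549 libraries, grouped as untreated (UT), palbociclib (PD), indisulam (IN) and both drugs (P+I). Points are libraries and bars are the means of 2. In all 12 genes both P+I points lie below both IN points, and for PLK1, MKI67 and CDKN3 the P+I and PD means lie close together, whereas for FAM111B, MCM10 and CDK1 the P+I mean is clearly the lower.

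Of the late G1 and G2 cyclins and kinases, 15 of 16 tested genes were lower, with a median log2 change of -1.89 beside 0.01 over all genes. CCNA2, the gene of cyclin A2, fell from 105 and 104 CPM to 13.1 and 14.3 CPM, 7.64-fold (log2 change -2.93, SE 0.0666, adjusted p = 1.8e-13). CCNE2 was at 6.72 and 7.69 CPM in IN and at 1.20 and 0.703 CPM in P+I (log2 change -2.91, SE 0.210, adjusted p = 5.39e-08). Its relative CCNE1 was the gene of this group that was not called, with 18.02 and 16.9 CPM in IN and 15.1 and 16.5 CPM in P+I (log2 change -0.14, SE 0.0835, adjusted p = 0.193). CDK1, the mitotic kinase, fell from 164 and 171 CPM to 23.3 and 23.9 CPM, and CDK2, the partner of cyclins E and A, from 82.1 and 84.8 CPM to 30.5 and 33.0 CPM. The log2 change was -2.83 for CDK1 and -1.39 for CDK2.

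The CDK-activating kinase, made of CDK7, cyclin H and MNAT1, phosphorylates CDK1 and CDK2 and is also part of the transcription factor TFIIH. CCNH, the gene of cyclin H, was at 27.0 and 23.7 CPM in UT, 25.2 and 24.3 CPM in PD, 9.12 and 8.30 CPM in IN and 10.1 and 10.8 CPM in P+I. Both indisulam groups thus lay below both groups without it, and the difference of P+I from IN was not called (log2 change 0.26, SE 0.106, adjusted p = 0.0645). CDK7 (0.12, adjusted p = 0.117) and MNAT1 (-0.05, adjusted p = 0.632) were not called either. Of the 9 tested genes of this kinase and TFIIH, 1 was called, GTF2H5 at 0.34, beside 38.8% called among all genes. The median of that list was 0.05, and 3 of its genes were called higher with total-count scaling.

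The machinery of DNA synthesis was lower almost throughout. Of 27 genes that license and fire replication origins, 26 were lower, with a median log2 change of -1.64. MCM10, which starts the replicative helicase, fell from 61.0 and 62.1 CPM to 8.60 and 7.50 CPM (log2 change -2.93, SE 0.0712, adjusted p = 2.54e-13), and GINS2, CDC45 and CDT1 fell by 2.86, 2.66 and 2.65. ORC4, a subunit of the origin recognition complex, was the exception, with a value of 0.15 that was not called. At the replication fork 33 of 36 genes were lower, with a median of -1.35, led by TOP2A (from 357 and 370 CPM to 46.2 and 51.2 CPM, log2 change -2.90, SE 0.0549). POLD4, a small subunit of DNA polymerase delta, was higher by 0.48. In deoxynucleotide synthesis 12 of 17 genes were lower. RRM2, the regulated subunit of ribonucleotide reductase, was at 72.5 and 74.98 CPM in IN and at 9.11 and 8.11 CPM in P+I, and TYMS, thymidylate synthase, at 98.2 and 95.6 CPM in IN and at 22.2 and 23.5 CPM in P+I. Their log2 changes were -3.10 (SE 0.0734) and -2.08 (SE 0.0527). In homologous recombination and the Fanconi pathway 26 of 28 genes were lower, with a median of -1.68, among them EXO1 at -2.88, RAD54L at -2.31 and FANCA at -2.29. FANCF was higher by 0.29.

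Genes of mitosis showed the same direction. All 34 kinetochore and centromere genes tested were lower, with a median log2 change of -1.52, as were all 33 genes of the spindle and cytokinesis, with a median of -2.12, and 24 of 25 mitotic kinases and checkpoint genes, with a median of -1.94. SPC25, a subunit of the outer kinetochore, fell from 13.9 and 14.6 CPM to 1.20 and 1.87 CPM (log2 change -3.21, SE 0.152). AURKB and PLK1, kinases of chromosome attachment and spindle assembly, fell by 2.85 and 2.61. MKI67, the proliferation marker Ki-67, fell from 473 and 469 CPM to 73.1 and 78.2 CPM (log2 change -2.64, SE 0.0798, adjusted p = 1.56e-12). Of 16 condensin and cohesin genes 14 were lower, with NCAPH at -2.82 and ESCO2 at -2.80. Taken over the 11 lists from E2F factors to cohesin, 232 of 250 genes were lower (92.8%, against 20.1% of all genes tested), 4 were higher and 14 were not called. Of the 130 genes of the whole table that fell by at least 2 on the log2 scale, 81 were in these lists. The count of lower genes in these lists ran from 227 to 233 over every alternative fit.

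**Figure D2:**
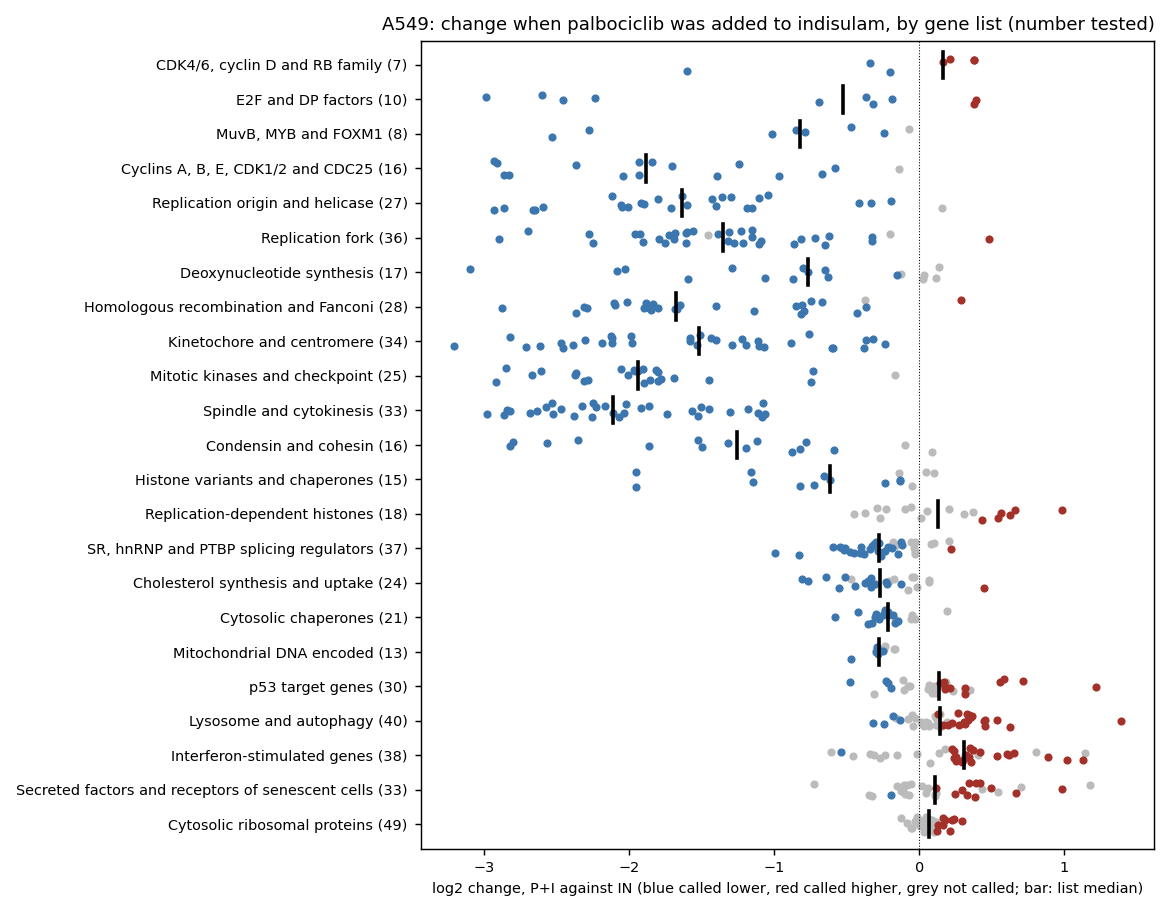
Log2 change of P+I against IN (horizontal axis) for each tested gene of 23 lists in A549, with the number tested in brackets. Blue points were called lower, red points higher and grey points neither, and the black bar is the median of the list. The replication and mitosis lists lie almost entirely left of 0, with medians down to -2.12 for the spindle and cytokinesis, while the lists from p53 target genes downward have medians between 0.07 and 0.31.

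Chromatin genes were split by type. Of 15 histone variants and histone chaperones 11 were lower, beside 20.1% of all genes, with H2AX at -1.95, ASF1B at -1.95 and H2AZ1 at -1.16. H2AZ1 was at 308 and 332 CPM in IN and at 141 and 146 CPM in P+I. LMNB1, the gene of lamin B1, whose loss is a common marker of senescent cells, fell from 111 and 111 CPM to 18.4 and 19.97 CPM (log2 change -2.53, SE 0.0646, adjusted p = 3.08e-13). Of the replication-dependent histone genes, whose transcripts lack a poly(A) tail and are poorly captured by poly(A) selection, 18 of 53 could be tested. Beside 18.6% higher and 20.1% lower among all genes, 6 were higher and none lower. These were genes at low level, such as H2AC6 with 4.24 and 3.71 CPM in IN and 6.62 and 5.67 CPM in P+I. The 6 calls became 2 in the fit with the fewest.

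The genes with the largest increases were less alike in function. BFSP1, which encodes the lens filament protein filensin, was at 6.12 and 7.12 CPM in IN and at 17.9 and 19.3 CPM in P+I, 2.81-fold higher (log2 change 1.49, SE 0.100, adjusted p = 2.56e-08). MR1, which presents vitamin B metabolites to T cells, rose from 4.41 and 4.68 CPM to 12.5 and 12.05 CPM (log2 change 1.43, SE 0.105). SLFN5, an interferon-inducible gene of the Schlafen family, rose from 16.7 and 16.7 CPM to 42.8 and 43.8 CPM (log2 change 1.37, SE 0.0635, adjusted p = 2.59e-10). WIPI1, a protein of autophagosome formation, was at 2.57 and 2.97 CPM in IN and at 7.77 and 6.75 CPM in P+I (log2 change 1.39, SE 0.144). For each of these genes both P+I libraries lay above both IN libraries, which the way they were chosen made likely. The remaining genes of the 12 largest increases were DNAH1, CELSR1P1, SLC16A4, MXD4, TMOD2, IGFL2-AS1, DCDC1 and YPEL2, at 1.26 to 1.43. CELSR1P1 is a pseudogene and IGFL2-AS1 an antisense RNA, so their counts may share reads with related or overlapping genes, and BFSP1, WIPI1, DNAH1, MXD4, TMOD2, DCDC1 and YPEL2 each overlap at least 1 annotated gene on their own strand.

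In the MYC network the MXD repressors, which compete with MYC for MAX, moved in both directions. MXD4 rose from 18.7 and 19.2 CPM to 51.1 and 45.6 CPM (log2 change 1.35, SE 0.0744, adjusted p = 2.12e-09). MXD3 fell from 12.8 and 10.3 CPM to 3.04 and 2.91 CPM (log2 change -1.96, SE 0.146, adjusted p = 8.11e-08). MXI1 was higher by 0.54 and MXD1 by 0.38, the latter not called by DESeq2, without P+I replicate 1 or without IN replicate 1. Of the 12 genes tested in the network 4 were higher and 3 lower, beside 18.6% higher and 20.1% lower among all genes. The median log2 change of the network was 0.05.

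Genes of published senescence sets were called higher more often than all genes in some sets, by small amounts. Senescence is a lasting exit from the cell cycle in which cells stay alive and secrete inflammatory factors. The study scored it with 5 published gene sets in other RNA samples. Those given both drugs were treated for days, not 16 h, and with less indisulam, so the counts below are not the study's scores. In the Casella set 18 of 37 tested genes were higher and 1 was lower, with a median log2 change of 0.28, and in the Purcell set 15 of 32 were higher and 1 lower, with a median of 0.30. In the Hernandez set 8 of 29 were higher and 4 lower, in its set of secreted factors (SASP) 5 of 19 were higher and none lower, and in the Fridman set 29 of 68 were higher and 9 lower, with medians of 0.08, 0.11 and 0.10. For all genes tested the median was 0.01, with 18.6% higher and 20.1% lower. The Hernandez count of higher genes was 13 with total-count scaling and 5 without IN replicate 1, and when 1 library was left out the counts of higher genes ran from 12 to 18 in the Casella set, from 10 to 13 in the Purcell set, from 4 to 6 in the SASP set and from 23 to 30 in the Fridman set. The lowest Casella count came without IN replicate 2, and the Purcell count was 10 without either IN library. The count of lower genes in the Fridman set was 3 to 7 in those fits, with the 3 found without IN replicate 1 and 5 without P+I replicate 2.

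Secreted factors were led by genes of small change. Of 33 tested factors and receptors of senescent cells 11 were higher and 1, AREG, was lower, beside 18.6% higher and 20.1% lower among all genes. CXCL5, a chemokine that draws neutrophils, was at 511 and 514 CPM in IN and at 643 and 642 CPM in P+I (log2 change 0.33, SE 0.0356, adjusted p = 5.03e-06). IGFBP5, which binds insulin-like growth factors, rose from 5.78 and 4.85 CPM to 10.3 and 10.7 CPM (log2 change 0.98, SE 0.121). IL6, IL1B and CCL2 were not called, with log2 values of 0.06, 1.18 and -0.10, at levels of at most 2.90 CPM in these 4 libraries. CXCL8 was higher by 0.66 (adjusted p = 0.00478), a call lost without IN replicate 1.

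Of 38 interferon-stimulated genes tested, 22 were higher and 1 was lower, with a median log2 change of 0.31. OAS2, a sensor of double-stranded RNA, rose from 7.70 and 6.82 CPM to 13.6 and 15.9 CPM (log2 change 1.02, SE 0.110, adjusted p = 4.6e-06), and SAMD9L and SAMD9 were higher by 0.89 and 0.60. OAS3, the exception, fell from 136 and 139 CPM to 96.2 and 93.1 CPM (log2 change -0.54). Of 18 genes of MHC class I and antigen processing 4 were higher, TAP1, PSMB8, TAPBP and HLA-E, and none was lower. That is near the 18.6% of all genes that were higher, and 2 were higher without IN replicate 1. Of 40 lysosome and autophagy genes 19 were higher and 4 lower, with LIPA, the lysosomal acid lipase, at 40.1 and 41.8 CPM in IN and at 62.5 and 63.8 CPM in P+I (log2 change 0.63, SE 0.0572). Of 30 p53 target genes 11 were higher and 4 lower. TP53INP1 was the highest of them, rising from 8.94 and 7.34 CPM to 20.4 and 17.5 CPM (log2 change 1.22, SE 0.117, adjusted p = 1.27e-06), followed by TP53I3 at 0.71 and ZMAT3 at 0.59. The counts of higher genes were lowest at 15, 15 and 7 for the interferon, lysosome and p53 lists when 1 library was left out.

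**Figure D3:**
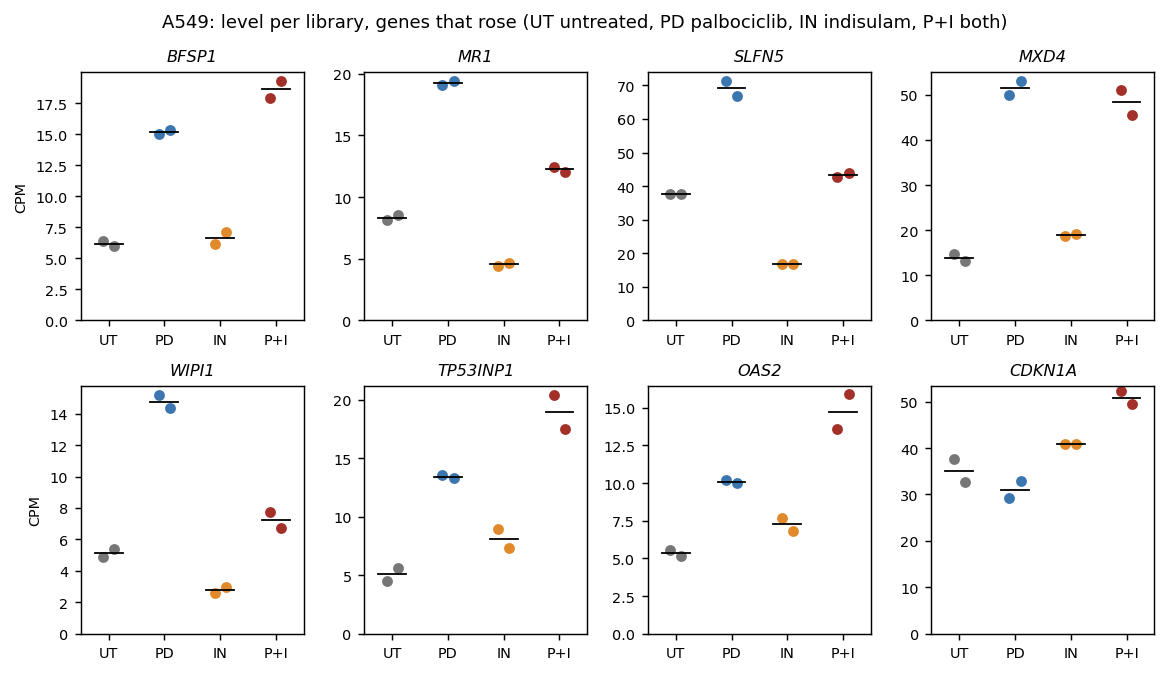
Level in CPM (vertical axis, from 0) of 8 genes called higher in P+I than in IN, in the 8 A549 libraries (UT untreated, PD palbociclib, IN indisulam, P+I both drugs). Points are libraries and bars are the means of 2. BFSP1, TP53INP1, OAS2 and CDKN1A have their highest mean in P+I, while MR1, SLFN5, MXD4 and WIPI1 have it in PD.

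Of 20 keratin and epithelial or mesenchymal genes 9 were higher and 2 lower, beside 18.6% higher and 20.1% lower among all genes. The higher count was 6 without IN replicate 2. KRT19 was at 101 and 105 CPM in IN and at 143 and 136 CPM in P+I (log2 change 0.44), and CDH1, the gene of E-cadherin, at 54.1 and 54.8 CPM in IN and at 74.1 and 76.2 CPM in P+I (log2 change 0.46). In the output of the ERK pathway 8 of 20 genes were higher and 1 lower, with DUSP6, a phosphatase that limits ERK, at 0.70, and 4 and 5 were higher without IN replicate 1 or 2. Of 14 BCL2 family genes tested 2 were higher and 4 lower, with a median log2 change of -0.08. BCL2L2 and BCL2L11 were lower, with log2 changes of -0.46 and -0.42 in a fit of all 16 libraries. The lowest log2 change of the family in the A549 fit was -1.19, and 1 member was called lower by at least 1. BCL2L1, which encodes the survival protein BCL-XL, was the largest increase of the family among genes of at least 5 CPM. It was at 151 and 154 CPM in IN and at 234 and 220 CPM in P+I (log2 change 0.58, SE 0.0462, adjusted p = 1.84e-07).

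Most splicing regulators and cytosolic chaperones tested were lower, by small amounts. Of 37 SR, hnRNP and PTBP genes 26 were lower and 1 was higher, with a median log2 change of -0.28. HNRNPH1 fell from 416 and 420 CPM to 215 and 255 CPM (log2 change -0.83, SE 0.0708, adjusted p = 3.73e-07) and HNRNPU by 0.55. RBM39, whose protein is the target of indisulam, was at 367 and 362 CPM in IN and at 336 and 336 CPM in P+I, beside 173 and 178 CPM in untreated cells. The difference between IN and P+I was -0.12 on the log2 scale (adjusted p = 0.0274), and it was not called in 6 of 12 alternative fits. DCAF15, the ligase receptor, was lower by 0.64 (adjusted p = 0.000676) and RBM23 by 0.23. These were the 3 genes called lower among the 8 of RBM39 and the DCAF15 ligase, whose other 5 were not called, and the median of that list was -0.06. Of 21 cytosolic chaperone genes 15 were lower and none higher, with HSP90AA1 at -0.58. Of 49 cytosolic ribosomal protein genes 9 were higher, near the share of 18.6% among all genes, and none was lower, beside 20.1% of all genes. With total-count scaling 27 were higher. Of 13 genes of the mitochondrial genome 5 were lower, between 1 and 13 in the alternative fits.

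The same palbociclib step without indisulam was compared next. Between UT and PD 6796 genes were called (43.2%), of which 3471 were higher (22%) and 3325 lower (21.1%). These libraries are not shared with the comparison of P+I and IN. Across the 15744 genes the log2 changes with and without indisulam had a Pearson's r of 0.716, over genes that share libraries and are not independent. In both comparisons 4297 genes were called in the same direction, which is 70.4% of those called with indisulam and 63.2% of those called without it, and 58 were called in opposite directions. The median over the 493 genes that fell by at least 1 with indisulam was -1.59, against -1.33 for the same genes without it, values that follow from having chosen them with indisulam present. Over the 250 genes of the 11 lists the medians were -1.61 and -1.42, with 232 and 231 lower.

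The difference between the palbociclib change with and without indisulam was tested gene by gene as an interaction. It was called for 556 genes (3.53%), lower with indisulam for 322 (2.05%) and higher for 234 (1.49%). With median-ratio (RLE) size factors 614 were called, 278 lower and 336 higher, so the split depended on the scaling. The count rested on the libraries used: it was 87 and 52 without IN replicate 1 or 2, 123 and 156 without UT replicate 1 or 2, 377 and 148 without PD replicate 1 or 2, and 976 and 898 without P+I replicate 1 or 2. In the 11 cell cycle lists 55 of 250 genes were called lower and 7 higher, and in fits without 1 library 22 to 51 were lower and 3 to 11 higher. A string for E2F was present in 45.2% of the 42 promoters matched for the genes called lower. It was present in 24.7% of the 158 promoters of list genes that were not called. In the same 2 groups a CHR string was present in 31.0% and 36.7%, and CCAAT in 71.4% and 53.8%.

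Among the cell cycle lists, origin and helicase genes held the most members that fell further with indisulam present. Of 27 origin and helicase genes 14 were called lower, of 28 homologous recombination genes 9, of 36 replication fork genes 7 and of 16 cyclins and kinases 4. When 1 library was left out these counts ran from 9 to 13, from 1 to 6, from 2 to 7 and from 2 to 4. The homologous recombination count was 1 without IN replicate 1, IN replicate 2 or PD replicate 2, and the replication fork count was 2 without IN replicate 2. FAM111B was at 51.1 and 55.5 CPM in UT and at 11.3 and 11.5 CPM in PD, so its log2 change was -2.22 without and -3.63 with indisulam (difference -1.41, SE 0.125, adjusted p = 9.49e-05). MCM10 was at 90.0 and 89.3 CPM in UT and at 24.1 and 24.5 CPM in PD (difference -1.05, SE 0.0955, adjusted p = 9.49e-05). CDK1 was at 174 and 175 CPM in UT and at 43.8 and 46.3 CPM in PD (difference -0.88, SE 0.0716, adjusted p = 9.08e-05). In each of these genes the UT and IN levels lay closer together than the PD and P+I levels did on the log2 scale. E2F1 (-1.04), E2F2 (-1.05), EXO1 (-1.03), PKMYT1 (-1.08) and RRM2 (-0.69) also differed. The calls of these 8 genes held in all 14 alternative fits.

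For other genes no difference was called, or the fall was smaller with indisulam present. For PLK1 the difference was -0.04 (SE 0.0676, adjusted p = 0.791), for MKI67 it was 0.04 (SE 0.108, adjusted p = 0.878), for CCNB1 0.20 (SE 0.0813, adjusted p = 0.209) and for TYMS 0.10 (SE 0.0711, adjusted p = 0.498). CDKN3, a phosphatase of CDK2 and CDK1, was at 74.9 and 75.2 CPM in UT, 19.7 and 19.7 CPM in PD, 59.1 and 54.7 CPM in IN and 21.6 and 21.9 CPM in P+I. It fell by 1.93 without and by 1.39 with indisulam (difference 0.54, SE 0.0864, adjusted p = 0.00566), a call held in 13 of 14 alternative fits. Of the 33 spindle and cytokinesis genes 4 were called lower in the difference and 3 higher, and the 3, KIF20A (0.61), DLGAP5 (0.50) and STMN1 (0.25), were named after their values were seen. RB1 itself fell by 0.61 without indisulam and by 0.20 with it (difference 0.41, adjusted p = 0.0101, called in 11 of 14 alternative fits).

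**Figure D4:**
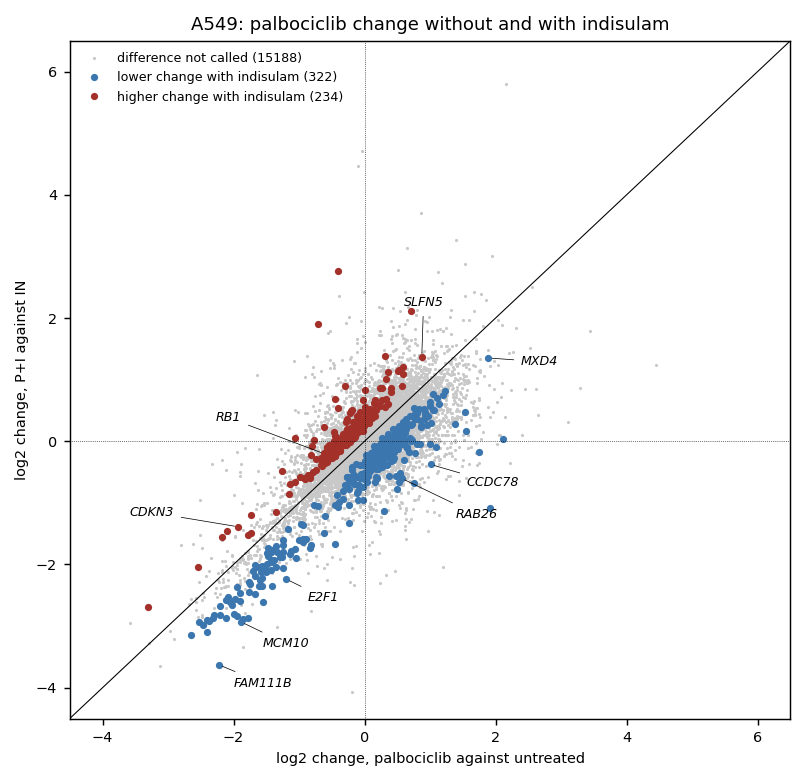
Log2 change of P+I against IN (vertical axis) and of palbociclib against untreated cells (horizontal axis) for the 15744 genes tested in A549, with the line of equal change. Grey points had no called difference, and 322 blue and 234 red points changed less upward or further downward, and the reverse, with indisulam present. FAM111B, MCM10 and E2F1 lie below the line at the lower left, where CDKN3 lies above it.

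Among the genes of cholesterol synthesis and uptake the palbociclib change was more negative with indisulam than without it for 9 of 24 members, against 2.05% of all genes. These genes are driven by SREBP2 when sterols are low. With indisulam 14 of 24 were lower and 1 was higher, TM7SF2, with a median log2 change of -0.27, and without indisulam 5 were lower and 5 higher, with a median of 0.05. INSIG1, which holds SREBP in the endoplasmic reticulum, was at 31.2 and 32.0 CPM in UT, 26.3 and 27.2 CPM in PD, 42.6 and 40.6 CPM in IN and 23.0 and 25.7 CPM in P+I (log2 change -0.23 without and -0.77 with indisulam, difference -0.54, SE 0.0966, adjusted p = 0.0101). HMGCS1 and MSMO1, enzymes of the pathway, were higher with palbociclib alone, by 0.31 and 0.45, and were not called with indisulam (-0.05 and -0.08). In edgeR's test all 9 calls were lost without either IN library, with medians of -0.33 and -0.31 against -0.35 with all libraries, and 2 or 3 genes were left without either UT library or PD replicate 2.

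**Figure D5:**
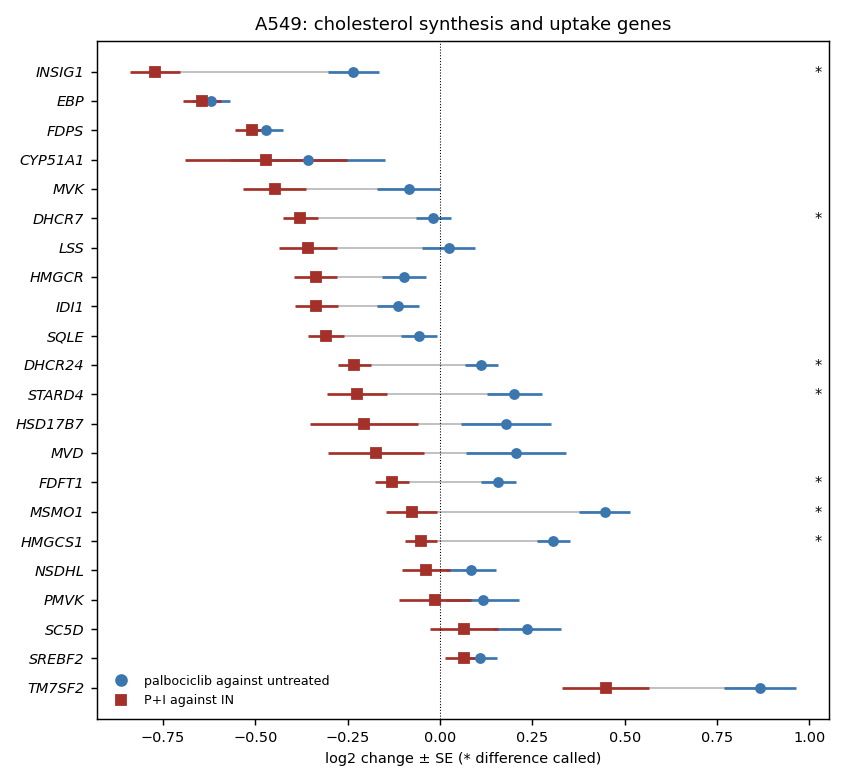
Log2 change with its SE (horizontal axis) for 22 of the 24 genes of cholesterol synthesis and uptake in A549, for palbociclib against untreated (blue circles) and for P+I against IN (red squares), with a star for each of the 7 genes drawn whose difference was called. The red squares of those 7 genes all lie left of their blue circles, and INSIG1 lies furthest left at -0.77.

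Among the 58 genes called in opposite directions with and without indisulam were RAB26 and CCDC78. RAB26, a small GTPase of secretory vesicles, was at 18.6 and 16.2 CPM in UT, 24.5 and 26.8 CPM in PD, 13.9 and 12.8 CPM in IN and 8.33 and 9.28 CPM in P+I. It rose by 0.56 without and fell by 0.60 with indisulam (difference -1.17, SE 0.140, adjusted p = 0.000961, called in all 14 alternative fits). CCDC78, which takes part in making the centrioles of multiciliated cells, rose by 1.01 without indisulam and was lower by 0.38 with it (difference -1.39, SE 0.193, adjusted p = 0.00256). SLFN5 and MXD4 rose in both comparisons. SLFN5 rose further with indisulam (difference 0.50, adjusted p = 0.00787), a call lost without either IN library. MXD4 rose less far (difference -0.54, adjusted p = 0.0181), a call held in 9 of 14 alternative fits. CDKN1A was at 37.6 and 32.7 CPM in UT and at 29.2 and 32.8 CPM in PD, and its difference was 0.49 (adjusted p = 0.0210), called in 10 of 14 alternative fits.

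In SUM159 the addition of palbociclib to indisulam also lowered the cell cycle lists, with 233 of 250 genes lower and a median log2 change of -1.17. Of all 17764 genes tested there, 8285 were called in either direction. In a fit of all 16 libraries the difference between the lines was called for 2610 of 17764 genes (14.7%), higher in SUM159 for 1791 (10.1%) and lower for 819 (4.61%). This balance depended on scaling and filtering, since 44.5% of the calls were higher with RLE size factors and 30.1% when every library had to hold 10 counts, against 68.6% here, and the median over all genes was -0.01 and -0.07 against 0.06. With any 1 of the A549 IN or P+I libraries left out, 28.5% to 32.9% of the calls were higher. The count itself was 1519 and 1586 without SUM159 P+I or IN replicate 1. Over the 250 genes of the 11 cell cycle lists the median difference was 0.39, with 138 called higher, meaning a smaller fall in SUM159, and 2 lower. Those counts ran from 96 to 138 and from 1 to 19 over the alternative fits. The median difference was 0.24 and 0.23 without A549 P+I replicate 1 or 2, and 0.25 and 0.27 without A549 IN replicate 1 or 2. The spindle and cytokinesis list had a median log2 change of -1.56 in SUM159 and of -2.12 in A549, and 27 of its 33 genes differed.

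IQGAP3, a scaffold protein of proliferating cells, was one of the 5 largest positive differences among genes averaging 5 CPM or more over the A549 libraries, and the other 4 rested on SUM159 libraries of at most 11 counts. Scaled over both lines, it was at 56.2 and 59.1 CPM in A549 IN and at 5.67 and 7.41 CPM in A549 P+I, and at 45.3 and 50.6 CPM in SUM159 IN and at 23.7 and 23.3 CPM in SUM159 P+I. Its change was -3.14 in A549 and -1.03 in SUM159 (difference 2.11, SE 0.127, adjusted p = 7.93e-11). PIF1 (difference 2.01, adjusted p = 1.16e-06) and E2F7 (difference 1.77, adjusted p = 4.72e-10) also fell further in A549. For MKI67 the changes were -2.63 and -2.38, and the difference of 0.25 (SE 0.115, adjusted p = 0.162) was not called. In the other direction DUSP6 rose in A549, from 21.8 and 21.5 CPM to 38 and 32.5 CPM, while in SUM159 it was at 22.7 and 21.8 CPM in IN and at 22.3 and 22.6 CPM in P+I (difference -0.69, SE 0.108, adjusted p = 9.09e-05). CDKN1A likewise was higher by 0.32 in A549 and had a log2 change of -0.22 in SUM159 (difference -0.54, SE 0.0918, adjusted p = 0.000224). The calls of IQGAP3, PIF1, E2F7, DUSP6 and CDKN1A held in all 14 alternative fits.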

How the data were processed

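RNA of A549 and SUM159 cells was prepared with a stranded poly(A) kit and sequenced as 75 bp paired-end reads. The authors trimmed reads with SeqPurge, aligned them to GRCh38 with HISAT2 (2.2.1 in the submitters' processing notes) and deposited raw counts per gene made with HTSeq, 1 file per library. The annotation release and the strand setting are not given in the sources used here. Rows that name no gene, 14.2% to 16.4% of the reads in A549, were kept out of library sizes and tests. GENCODE 44 paired 58207 of 58676 gene identifiers with a symbol.

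The 8 A549 libraries were fitted together, 1 coefficient per group, with edgeR 4.0.16 in R 4.3.3 (filterByExpr, TMM scaling, glmQLFit and glmQLFTest), and the line comparison was fitted on all 16. P-values were adjusted by the Benjamini-Hochberg method over all genes of a fit, with a threshold of 0.05. The script was tested on simulated data. A549 libraries held 18306636 to 34075588 counts, so a floor of 3 counts was 0.0880 to 0.164 CPM, which covers counting error only. Replicate counts differed by more than sampling noise in each A549 group (chi-square per degree of freedom 2.33 to 6.56).

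Genes were named by role (30), as the 12 largest changes each way, as up to 4 called members per list, and as the 5 largest differences each way in both tests of a difference, with a mean of at least 5 CPM beyond the first rule. Exceptions within a list were also named, after their values were seen. The 43 gene lists matched 1067 of 1073 symbols. The comparison, the lists and the rules were chosen with earlier results of these data known. Alternatives were DESeq2 1.42.0, limma-voom (limma 3.58.1), RLE and total-count scaling, other low-count filters, only the 4 libraries, a replicate block and leaving out each library. Lists counted under these alternatives, and all alternatives of the palbociclib effect alone, were added after seeing the data. Sequences are from RefSeq. Some genes are not reported here.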

Additional observations from a re-analysis of the deposited data

Results flagged for a closer look

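The change with palbociclib differed between cells with and without indisulam, by a test of the difference itself, for 556 genes in A549, and it differed between SUM159 and A549 cells given indisulam for 2610 genes. The genes with the largest such differences are given here as log2 values, with edgeR's adjusted p in the first comparison, and without an explanation.

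Further down with indisulam were FAM111B at -1.41, CCDC78 at -1.39, EGLN2 at -1.23, RAB26 at -1.17 and AMH at -1.10. EGLN2, an oxygen-sensing prolyl hydroxylase, was at 4.60 and 6.76 CPM in UT, 3.63 and 4.50 CPM in PD, 8.77 and 9.35 CPM in IN and 2.21 and 3.47 CPM in P+I, and it overlaps 2 annotated genes on its strand (adjusted p = 0.0297). AMH, anti-Müllerian hormone, was at 4.91 and 5.07 CPM in UT, 4.88 and 3.83 CPM in PD, 17.5 and 21.5 CPM in IN and 8.003 and 7.45 CPM in P+I (adjusted p = 0.0130). Both genes thus had their highest level in IN.

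In the other direction were CELSR1P1 at 1.08, GABPB2 at 0.94, POMK at 0.86, the carboxypeptidase M gene CPM at 0.83 and ELOVL2 at 0.78. GABPB2, a subunit of a transcription factor, fell with palbociclib alone by 0.40 and rose by 0.53 with indisulam present (adjusted p = 0.00676). ELOVL2, an elongase of long fatty acids, fell by 1.26 without and by 0.48 with indisulam (adjusted p = 0.0395). Of these 10 differences, 7 lost their call without IN replicate 2, and 5 lost it without each of IN replicate 1, UT replicate 1 and PD replicate 2. GABPB2 lost its call without IN replicate 2, AMH in 4, EGLN2 in 4 and ELOVL2 in 6 of the 8 fits without 1 library, and FAM111B, CCDC78 and RAB26 lost theirs in none of them.

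Between the lines, IQGAP3 had a difference of 2.11, SUM159 minus A549. Higher fitted differences for ICA1 (4.66), PRTFDC1 (4.19), DENND2D (3.14) and DRAIC (2.75) rest on 0 to 11 counts in each SUM159 library, so they depend on the fit's prior count and no fold is given. Lower in SUM159 were CPM at -1.83, ZNF704 at -1.26, RAB15 at -1.14, PELI2 at -1.04 and SCG2 at -0.96. Of these, CPM had 9 to 27 and ZNF704 7 to 15 counts in each SUM159 library. SCG2, secretogranin II, rose in A549 by 0.97 and had a change of 0.00 in SUM159.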

How the results depend on the processing

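Of the 6106 genes called for P+I against IN, 782 also changed by at least 1 on the log2 scale, and 4209 to 5473 were called when 1 library was left out. Of the 192 named genes, 186 were called, 161 of them under every alternative, and the 25 that lost the call in some had log2 changes of at most 0.663 in size. Of all values of named genes, 2 changed sign, MNAT1 to 0.0129 with total-count scaling and DRAIC, which ranged from -0.0447 to 0.0731 without 1 library, and neither was called. The 556 differences with against without indisulam became 343 with DESeq2 and 998 with no filter on low counts, which tested more genes, and ranged from 52 to 976 without 1 library. The 2610 differences between the lines ranged from 1519 to 3272 without 1 library. The cause of these shifts was not tested. For the palbociclib effect alone 4709 to 6899 genes were called in the alternative fits of all libraries. The labels give same-numbered replicates in each group, and same-numbered IN and P+I libraries deviated together with a correlation of 0.0292 (UT and PD -0.0809), so the numbers were not taken as pairs. With the replicate block the counts were 5926, 470, 2505 and 6609 for the added, difference, line and palbociclib comparisons, against 6106, 556, 2610 and 6796 without it. With 2 libraries a group, leaving 1 out assumes that the lone library varies like the other groups.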
